A study of Homo sapiens with 16 samples.

Results

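The genes described here encode 8 enzymes of deoxynucleotide synthesis, RRM1, RRM2, DCTD, DUT, TYMS, DTYMK, TK1 and DCK. They were chosen by symbol and are 8 of the 62069 genes in the count table, and all 8 were among the 13526 genes with enough counts to test. The cells were IMR90 ER:RAS, human lung fibroblasts carrying a RAS oncoprotein fused to the oestrogen receptor's hormone-binding part, so that 4-hydroxytamoxifen (4OHT) switches RAS on and the cells enter senescence, a lasting growth arrest. There were 4 groups of 4 RNA-seq libraries. The shAHCY_2 group (replicates 57 to 60) and the shAHCY_4 group (replicates 61 to 64) carried the fusion and an shRNA against AHCY, and received 4OHT. The EV_4OHT group (replicates 53 to 56) carried the fusion and an empty vector, received 4OHT and is labelled senescent. The EV group (replicates 49 to 52) carried the fusion and the empty vector and is labelled non-senescent. 4OHT was used at 100 nM. All 16 libraries came from day 6 and passage 15. No group received 4OHT without the fusion, so the drug and RAS activity cannot be told apart. None carried an AHCY hairpin without 4OHT, so whether changes with the hairpins need 4OHT is not known. None carried a non-targeting hairpin, so AHCY loss cannot be told apart from carrying any hairpin. Nothing in the labels tells separate cultures from repeat libraries of 1 culture, so the spread behind each p-value may be technical.

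A cell that copies its DNA needs the 4 deoxynucleoside triphosphates (dNTPs). Ribonucleotide reductase makes deoxynucleotides from ribonucleotides. Its large subunit is encoded by RRM1 and its S-phase small subunit by RRM2. RRM2B encodes a small subunit induced by DNA damage that also works in resting cells. The thymidylate branch leads from dCMP or dUTP through dUMP to dTTP by way of DCTD, DUT, TYMS and DTYMK. TK1 and DCK salvage ready-made deoxynucleosides. RRM2, TK1, TYMS and DUT are known as genes whose RNA climbs as cells enter S phase, under E2F factors and, for RRM2 and TK1, with factors that bind CCAAT boxes. Senescent fibroblasts no longer replicate, and low RRM2 has been described in RAS-induced senescence.

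Promoter windows are shown for 5 of the 8 genes, 4 that fell furthest in EV_4OHT and DCTD, which was not called there. Each window runs from 250 bases before to 50 bases after an annotated start (300 bases, RefSeq, GRCh38.p14), and all 8 genes had at least 1. For a gene with several starts, the window with the most matches is printed. Capitals mark letters matching an E2F site (TTTCCCGC, TTTCGCGC, TTTGCCGC or TTTGGCGC), a CHR element (TTTGAA or TTCGAA) or a CCAAT box (CCAAT), each searched on both strands. None of the matches printed in these 5 windows overlapped.
RRM2 (chr2:10122489-10122788, plus strand): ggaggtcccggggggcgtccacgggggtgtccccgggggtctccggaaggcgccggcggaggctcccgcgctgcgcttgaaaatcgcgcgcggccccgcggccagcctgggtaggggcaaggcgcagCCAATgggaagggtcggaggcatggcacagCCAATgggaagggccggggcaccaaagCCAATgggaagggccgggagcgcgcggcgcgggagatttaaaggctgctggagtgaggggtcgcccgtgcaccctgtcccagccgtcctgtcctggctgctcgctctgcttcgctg
TK1 (chr17:78187003-78187302, minus strand): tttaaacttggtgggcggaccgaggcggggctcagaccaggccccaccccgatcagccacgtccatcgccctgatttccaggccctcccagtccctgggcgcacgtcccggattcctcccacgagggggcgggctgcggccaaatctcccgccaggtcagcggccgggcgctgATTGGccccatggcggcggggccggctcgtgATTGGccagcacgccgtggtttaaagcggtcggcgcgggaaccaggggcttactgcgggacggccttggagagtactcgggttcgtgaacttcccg
TYMS (chr18:657403-657702, plus strand): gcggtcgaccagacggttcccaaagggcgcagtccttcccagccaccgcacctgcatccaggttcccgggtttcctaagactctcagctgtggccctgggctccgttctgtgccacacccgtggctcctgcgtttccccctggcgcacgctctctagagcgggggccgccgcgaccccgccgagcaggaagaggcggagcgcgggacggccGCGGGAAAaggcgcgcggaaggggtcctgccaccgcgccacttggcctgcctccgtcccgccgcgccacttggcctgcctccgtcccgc
DUT (chr15:48331947-48332246, plus strand): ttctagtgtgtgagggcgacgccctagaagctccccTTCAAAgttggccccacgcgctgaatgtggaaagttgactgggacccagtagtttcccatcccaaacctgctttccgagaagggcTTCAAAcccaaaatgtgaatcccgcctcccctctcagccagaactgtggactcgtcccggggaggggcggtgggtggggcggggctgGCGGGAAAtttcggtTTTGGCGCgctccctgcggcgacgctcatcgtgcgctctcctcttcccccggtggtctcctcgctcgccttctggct
DCTD (chr4:182917562-182917861, minus strand): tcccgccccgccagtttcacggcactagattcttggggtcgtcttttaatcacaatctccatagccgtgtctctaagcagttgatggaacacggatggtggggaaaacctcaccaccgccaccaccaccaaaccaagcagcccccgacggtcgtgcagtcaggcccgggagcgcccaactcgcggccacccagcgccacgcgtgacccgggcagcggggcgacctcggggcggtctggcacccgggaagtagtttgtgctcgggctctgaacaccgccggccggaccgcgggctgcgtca
The RRM2 window held 3 CCAAT boxes and the TK1 window 2, with no E2F match in either. The TYMS window held 1 E2F match, from -39 to -32 relative to the start. The DUT window held 2 E2F and 2 CHR matches. The DCTD window held none of the 3. Among the windows not printed of these genes, those of DUT, TK1 and DCTD held none of the 3 either. That of RRM2 held 1 CCAAT box. Of 35116 such windows, 3.315% held an E2F match, 16.35% a CHR match and 34.61% a CCAAT box. These shares are for windows not picked by their matches, so they are no fair measure for the windows printed. Among the genes not printed, DCK had 1 E2F match, RRM1 had 1 CHR and 1 CCAAT match, and DTYMK had 1 CHR and 2 CCAAT matches. These matches describe letters, not binding.

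Library totals ranged from 8236199 to 18235787 counts. AHCY, the knocked-down gene, had 20.1, 19.0, 12.1 and 22.8 CPM (counts scaled to library size by edgeR's TMM factors) in shAHCY_2 and 13.4, 14.0, 17.98 and 13.5 CPM in shAHCY_4. It had 168, 163, 173 and 154 CPM in EV_4OHT and 124, 106, 102 and 123 CPM in EV. Both hairpin groups lay far below both vector groups. The 8 fibroblast markers checked, led by FN1, VIM and COL1A1, were present in every library, with summed levels of 8133 to 9412 CPM in shAHCY_2, 8778 to 9905 in shAHCY_4, 8228 to 8768 in EV_4OHT and 13881 to 17128 in EV. PECAM1, CDH5 and CD3E had 0 counts throughout, KRT5 at most 1 and CDH1 at most 4. The 5 epithelial markers together reached 18.03 to 24.8 CPM in EV and at most 8.29 CPM elsewhere. CLDN4 made up most of each sum, and EPCAM had 0.787 to 1.64 CPM in shAHCY_2, 0.478 to 1.58 in shAHCY_4, 1.004 to 2.04 in EV_4OHT and 1.66 to 3.75 in EV. By the Spearman rho, across genes, of GC content with the log2 level relative to each gene's mean over all libraries, 2 libraries leaned towards AT-rich transcripts, shAHCY_2 replicate 59 (-0.535) and EV replicate 51 (-0.266), against -0.118 to 0.281 in the other 14. In bulk RNA, fewer cells making a transcript and less RNA per cell cannot be told apart.

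In RAS-activated vector cells, 7 of the 8 enzymes fell and none rose. TK1 fell furthest, to 8.29% of the EV mean, followed by RRM2 at 13.6% and TYMS at 16.3%. DUT was at 33.9%, RRM1 at 43.0%, DCK at 45.8% and DTYMK at 68.2%, while DCTD was at 96.1% and was not called. A gene counts as higher or lower where the adjusted p (edgeR quasi-likelihood test, Benjamini-Hochberg over 13526 genes) is under 0.05. By that rule 26.8% of all genes tested were lower in EV_4OHT and 26.7% were higher. The 8 were chosen with earlier results of these data known, so their count beside such shares, here and below, is no test. The median log2 fold change of the 8 was -1.39, against -0.02 over all genes tested. Summed over the 8 genes, the level was 357 ± 9.88 CPM in EV_4OHT and 949 ± 11.4 CPM in EV (SD, n = 4 each).

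With both AHCY hairpins the mean level of each enzyme lay between those of EV_4OHT and EV, except that of DCTD with shAHCY_4, at 108% of the EV mean. RRM2 and TK1 rose most against EV_4OHT, to 45.3% and 24.6% of the EV mean with shAHCY_2 and to 41.1% and 28.1% with shAHCY_4. With shAHCY_2, 5 of 8 rose (RRM1, RRM2, DUT, TYMS and TK1), where 3.91% of all genes did. With shAHCY_4, 6 of 8 rose (the same 5 and DCK), where 7.58% of all genes did. None fell, against 3.07% and 6.86% of all genes. Without shAHCY_2 replicate 59 the shAHCY_2 count was still 5. The shAHCY_4 count was 3 without EV_4OHT replicate 53, 54 or 55 or shAHCY_4 replicate 62 or 64. The summed level of the 8 was 519 ± 10.3 CPM in shAHCY_2 and 519.7 ± 13.7 CPM in shAHCY_4 (SD, n = 4 each), 54.7% of EV in both. The median log2 fold change of the 8 was 0.47 with shAHCY_2 and 0.35 with shAHCY_4, against 0.01 over all genes in each. Both hairpin comparisons use the same 4 EV_4OHT libraries.

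**Figure D1:**
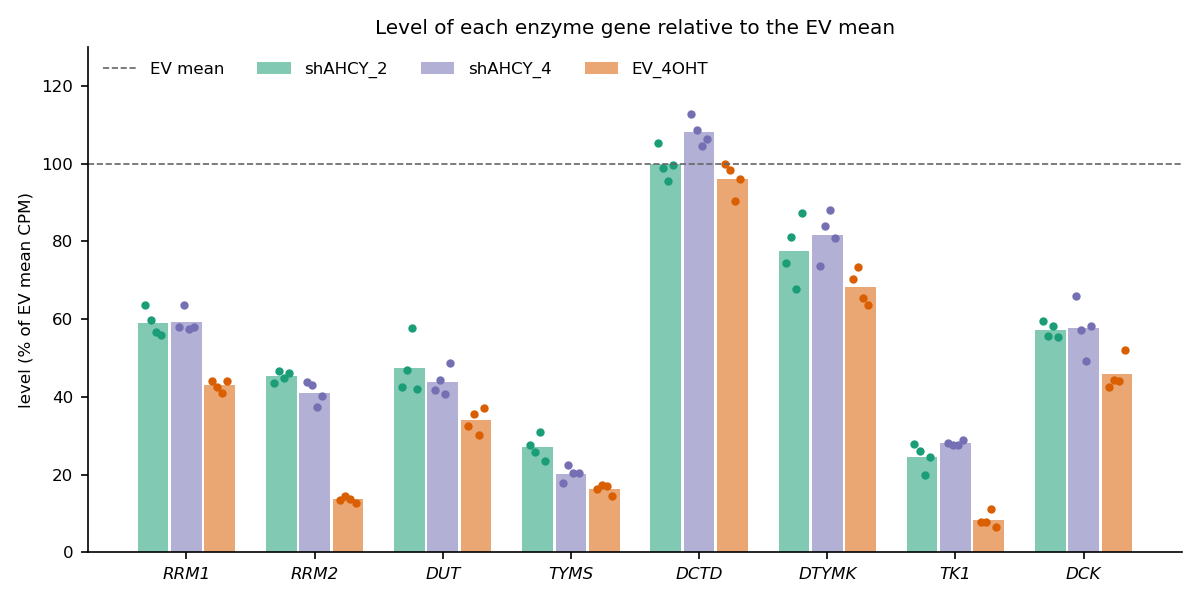
Level of each enzyme gene as a percentage of its own EV mean (y axis, CPM scaled by TMM), for shAHCY_2, shAHCY_4 and EV_4OHT. Bars are means, points are the 4 libraries of a group and the dashed line is the EV mean; RRM2 stands at 45.3%, 41.1% and 13.6%, TK1 at 24.6%, 28.1% and 8.29%, and DCTD near 100% in all 3.

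RRM2, the small subunit that sets reductase activity in S phase, separated the hairpin groups, EV_4OHT and EV without overlap. It had 109, 117, 113 and 116 CPM in shAHCY_2 and 110.0, 108, 93.9 and 101 CPM in shAHCY_4. It had 33.7, 36.7, 34.5 and 32.0 CPM in EV_4OHT and 245, 252, 254 and 253 CPM in EV. No hairpin library came near either vector group. The log2 fold change of RRM2 was -2.87 ± 0.07 in EV_4OHT over EV (SE, edgeR adjusted p = 1.2e-18). Against EV_4OHT it was 1.73 ± 0.07 with shAHCY_2 (edgeR adjusted p = 3.19e-13) and 1.59 ± 0.07 with shAHCY_4 (edgeR adjusted p = 1.26e-12). Among all genes tested, RRM2 ranked 53rd from the highest change with shAHCY_2 and 84th with shAHCY_4.

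RRM1, the large subunit that carries the catalytic site, moved in the same directions by less. It had 104, 98.0, 92.8 and 91.5 CPM in shAHCY_2 and 94.99, 104, 94.0 and 94.8 CPM in shAHCY_4. It had 72.4, 69.6, 67.4 and 72.1 CPM in EV_4OHT and 176, 158, 163 and 158 CPM in EV. Every hairpin library was above every EV_4OHT library and below every EV library. For RRM1 the log2 fold change was -1.22 ± 0.07 in EV_4OHT over EV (SE, edgeR adjusted p = 2.24e-12). Against EV_4OHT it was 0.46 ± 0.07 with either hairpin (edgeR adjusted p = 2.07e-04 for shAHCY_2 and 1.03e-04 for shAHCY_4).

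RRM2B, the damage-induced small subunit and not one of the 8, went the other way in vector cells. It had 151, 140.2, 154 and 155 CPM in EV_4OHT and 90.2, 103, 117 and 89.8 CPM in EV, a log2 fold change of 0.58 ± 0.12 (SE, edgeR adjusted p = 4.10e-04). It had 144, 151, 228 and 136 CPM in shAHCY_2 and 158, 138, 148 and 163 CPM in shAHCY_4, and was called in neither against EV_4OHT (edgeR adjusted p = 0.567 and 0.947). The library at 228 CPM is shAHCY_2 replicate 59, 1 of the 2 leaning to AT-rich transcripts, and the RRM2B transcript has 36.4% GC. Without replicate 59 the log2 fold change with shAHCY_2 over EV_4OHT was -0.06 in place of 0.13, neither called. The other leaning library, EV replicate 51, had the highest EV level (117 CPM). Leaving out 1 library at a time, the log2 fold change in EV_4OHT over EV ranged from 0.50 to 0.66. Per kb of transcript, the RRM2B level was 1.08 times that of RRM2 in shAHCY_2, 1.10 times in shAHCY_4, 3.28 times in EV_4OHT and 0.297 times in EV. The RRM2 level per kb was 1.02 times that of RRM1 in shAHCY_2, 0.917 times in shAHCY_4, 0.420 times in EV_4OHT and 1.32 times in EV. These are mean ratios over 4 libraries, on the longest annotated transcript, and were not tested.

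**Figure D2:**
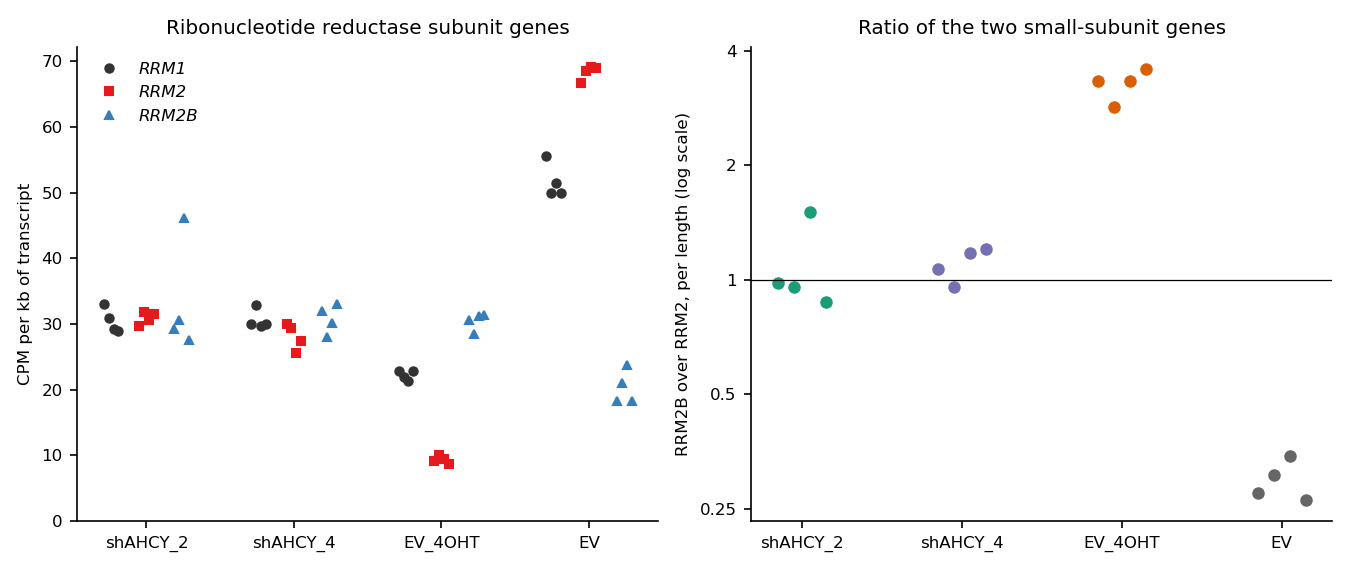
Left: levels of the reductase subunit genes in each library (y axis, CPM per kb of the longest transcript), by group. Right: RRM2B level over RRM2 level per length in each library (log axis); shAHCY_2 libraries lie between 0.876 and 1.51, shAHCY_4 libraries between 0.956 and 1.203, EV_4OHT libraries between 2.85 and 3.60 and EV libraries between 0.264 and 0.344.

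In the thymidylate branch, DUT and TYMS fell in EV_4OHT and rose with both hairpins, DTYMK fell in EV_4OHT and DCTD was called in no comparison. TYMS, which turns dUMP into thymidylate, had 20.1, 18.8, 22.4 and 17.0 CPM in shAHCY_2 and 12.9, 16.3, 14.9 and 14.8 CPM in shAHCY_4. It had 11.9, 12.6, 12.3 and 10.5 CPM in EV_4OHT and 68.1, 72.3, 74.8 and 74.8 CPM in EV. Both hairpin groups lay above every EV_4OHT library, and both stayed far below the EV range. TYMS had a log2 fold change of -2.62 ± 0.10 in EV_4OHT over EV (SE, edgeR adjusted p = 1.61e-15). Against EV_4OHT it was 0.72 ± 0.11 with shAHCY_2 (edgeR adjusted p = 8.90e-05) and 0.32 ± 0.11 with shAHCY_4 (edgeR adjusted p = 0.0461). The shAHCY_4 call was lost without any 1 of 10 libraries (EV replicates 50 and 52, all 4 of EV_4OHT, shAHCY_2 replicate 58 and shAHCY_4 replicates 62, 63 and 64), with adjusted p from 0.0519 to 0.157. ENOSF1, a gene antisense to TYMS that overlaps it, had 10.1 to 15.5 CPM and was called in none of these 3 comparisons. The libraries do not mark strand, so reads of the overlap cannot be assigned. Other annotated transcripts likewise overlap RRM1, RRM2 and DUT.

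DUT, the dUTPase that supplies dUMP and keeps uracil out of DNA, had 34.1, 37.5, 46.3 and 33.6 CPM in shAHCY_2 and 33.4, 35.5, 32.6 and 39.0 CPM in shAHCY_4. It had 26.1, 28.6, 24.2 and 29.8 CPM in EV_4OHT and 70.4, 84.5, 91.7 and 73.6 CPM in EV. Neither hairpin group overlapped EV_4OHT or EV. DUT had a log2 fold change of -1.56 ± 0.11 in EV_4OHT over EV (SE, edgeR adjusted p = 7.36e-11). Against EV_4OHT it was 0.48 ± 0.11 with shAHCY_2 (edgeR adjusted p = 0.0108) and 0.37 ± 0.11 with shAHCY_4 (edgeR adjusted p = 0.0304). The shAHCY_2 library at 46.3 CPM is replicate 59, which leans to AT-rich transcripts, and the DUT transcript has 44.2% GC. Leaving out 1 library at a time, the log2 fold change with shAHCY_2 over EV_4OHT ranged from 0.37 to 0.53. That of shAHCY_2 over shAHCY_4 ranged from 0.0018 to 0.15. Without EV_4OHT replicate 55 the shAHCY_2 call was lost (adjusted p = 0.0632). The shAHCY_4 call was lost without EV_4OHT replicate 53, 54 or 55 or shAHCY_4 replicate 62 or 64 (adjusted p from 0.0521 to 0.115).

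DTYMK, the thymidylate kinase, had 68.4, 74.4, 62.2 and 80.0 CPM in shAHCY_2 and 67.5, 76.9, 80.7 and 74.1 CPM in shAHCY_4. It had 64.5, 67.4, 60.1 and 58.4 CPM in EV_4OHT and 88.8, 88.9, 86.8 and 102.5 CPM in EV. The shAHCY_2 and EV_4OHT ranges overlapped, and the shAHCY_4 range lay just above that of EV_4OHT. DTYMK fell in EV_4OHT over EV by 0.55 on the log2 scale (SE 0.09, edgeR adjusted p = 1.69e-05). Against EV_4OHT the log2 fold change was 0.19 (95% interval 0.00 to 0.37, edgeR adjusted p = 0.218) with shAHCY_2 and 0.26 (0.07 to 0.44, edgeR adjusted p = 0.0547) with shAHCY_4. The shAHCY_4 difference was called without EV replicate 49 or 51, shAHCY_2 replicate 59 or 60 or shAHCY_4 replicate 61 (adjusted p from 0.0291 to 0.0482). It was also called under DESeq2 (0.0376), library totals alone (0.0213), with only the 2 groups in the fit (0.0115) and once GC trends were removed (0.0134), and this last setting called the shAHCY_2 difference too (0.0155).

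DCTD, the deaminase that makes dUMP from dCMP, was the steadiest of the 8. It had 134, 126, 121 and 126 CPM in shAHCY_2 and 143, 138, 133 and 135 CPM in shAHCY_4. It had 127, 125, 115 and 122 CPM in EV_4OHT and 137, 124, 117 and 129 CPM in EV. The EV_4OHT and EV ranges overlapped, and the shAHCY_4 range lay above that of EV_4OHT. The log2 fold change was -0.06 in EV_4OHT over EV (95% interval -0.20 to 0.09, edgeR adjusted p = 0.505). It was 0.06 with shAHCY_2 over EV_4OHT (-0.09 to 0.20, edgeR adjusted p = 0.683) and 0.17 with shAHCY_4 over EV_4OHT (0.03 to 0.31, edgeR adjusted p = 0.11). Scaled by library totals alone, DCTD was called lower in EV_4OHT (log2 -0.17, adjusted p = 0.0461), a scaling under which the median gene also moved by -0.13. With shAHCY_4 over EV_4OHT it was called higher under that scaling (0.22, adjusted p = 0.0339) and with only the 2 groups in the fit (0.16, adjusted p = 0.0491).

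Of the salvage kinases, TK1 fell further than any of the other enzymes in EV_4OHT. TK1, the cytosolic thymidine kinase of S phase, had 34.1, 32.0, 24.5 and 29.98 CPM in shAHCY_2 and 34.6, 33.8, 34.0 and 35.4 CPM in shAHCY_4. It had 9.48, 9.58, 13.7 and 7.97 CPM in EV_4OHT and 119.6, 123, 111 and 138 CPM in EV. The 3 ranges of the hairpins, EV_4OHT and EV were far apart. The log2 fold change of TK1 was -3.58 ± 0.13 in EV_4OHT over EV (SE, edgeR adjusted p = 5.99e-16), the 60th lowest of 13526. Against EV_4OHT it was 1.56 ± 0.13 with shAHCY_2 (edgeR adjusted p = 4.40e-08) and 1.75 ± 0.13 with shAHCY_4 (edgeR adjusted p = 4.31e-09). The lowest shAHCY_2 library is again replicate 59, and the TK1 transcript has 62.8% GC. Without that library the log2 fold change was 1.64. Per kb, the TK1 level was 7.45 times that of TK2, its mitochondrial counterpart, in shAHCY_2, 6.71 times in shAHCY_4, 2.40 times in EV_4OHT and 25.2 times in EV.

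DCK, which phosphorylates deoxycytidine and several nucleoside drugs, had 24.1, 22.7, 23.7 and 22.5 CPM in shAHCY_2 and 26.8, 23.2, 19.98 and 23.7 CPM in shAHCY_4. It had 17.3, 18.1, 17.9 and 21.2 CPM in EV_4OHT and 39.0, 41.2, 44.8 and 37.6 CPM in EV. The shAHCY_2 range lay above EV_4OHT, and the shAHCY_4 range overlapped it. DCK had a log2 fold change of -1.12 ± 0.10 in EV_4OHT over EV (SE, edgeR adjusted p = 3.15e-09). Against EV_4OHT it was 0.32 ± 0.10 with each hairpin, called with shAHCY_4 (edgeR adjusted p = 0.0389) and not with shAHCY_2 (edgeR adjusted p = 0.0656). The shAHCY_2 change was called without EV_4OHT replicate 56 (adjusted p = 0.0427), under DESeq2 (0.0417) and under library totals alone (0.0388). The shAHCY_4 call was lost without EV replicate 50, EV_4OHT replicate 53, 54 or 55 or shAHCY_4 replicate 61, 62 or 64 (adjusted p from 0.0509 to 0.121), under voom (0.0577) and without the low-count filter (0.155). DCK overlaps MOB1B on the same strand in the annotation. MOB1B had 51.1 to 116 CPM and fell in EV_4OHT over EV (log2 fold change -0.52 ± 0.17 SE, edgeR adjusted p = 0.0131).

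**Figure D3:**
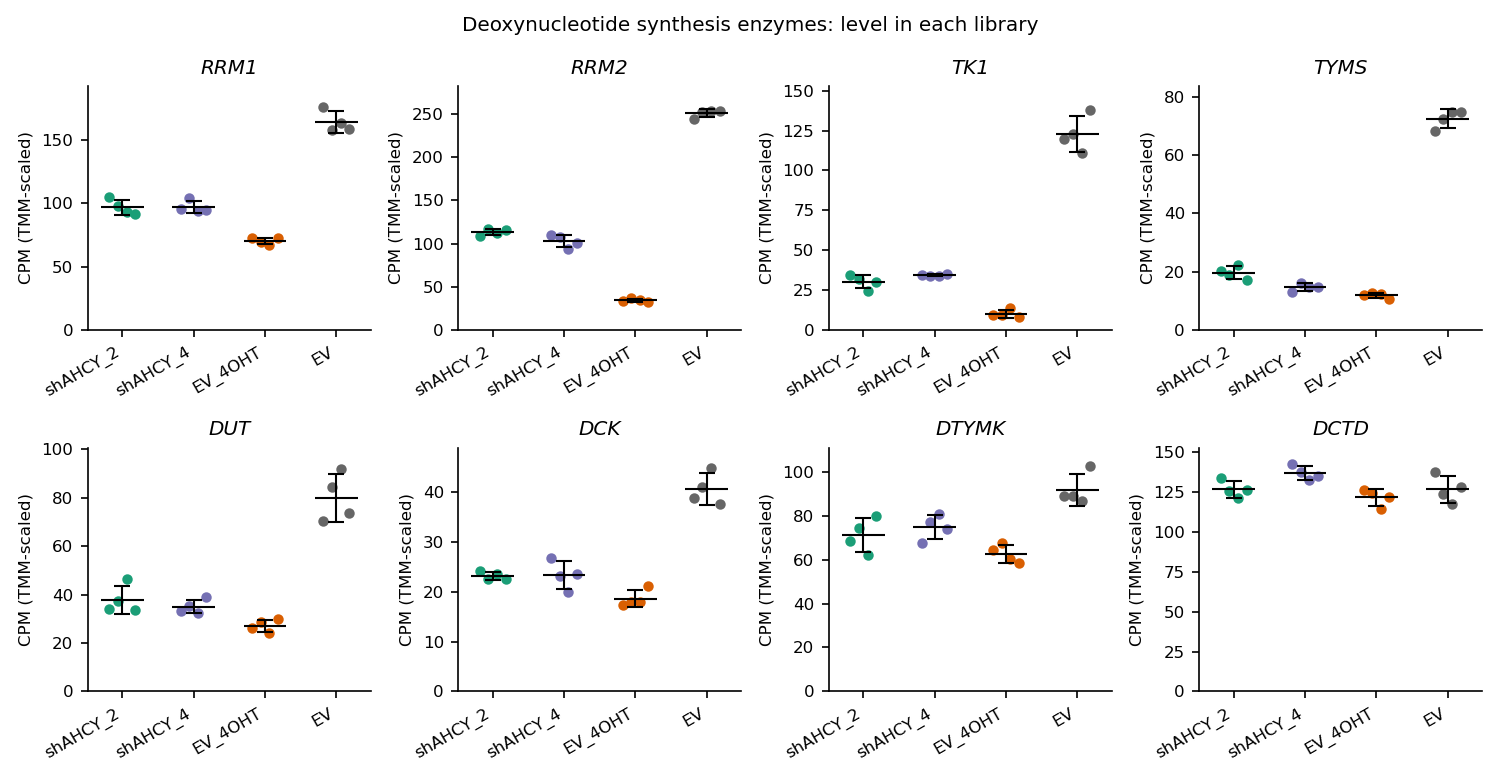
Level of each of the 8 enzyme genes (y axis, CPM scaled by TMM, from 0) in every library of the 4 groups; points are libraries and bars the mean ± SD. In 7 panels the EV libraries are highest and the EV_4OHT mean is lowest; in the DCTD panel the EV_4OHT and EV ranges overlap.

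**Figure D4:**
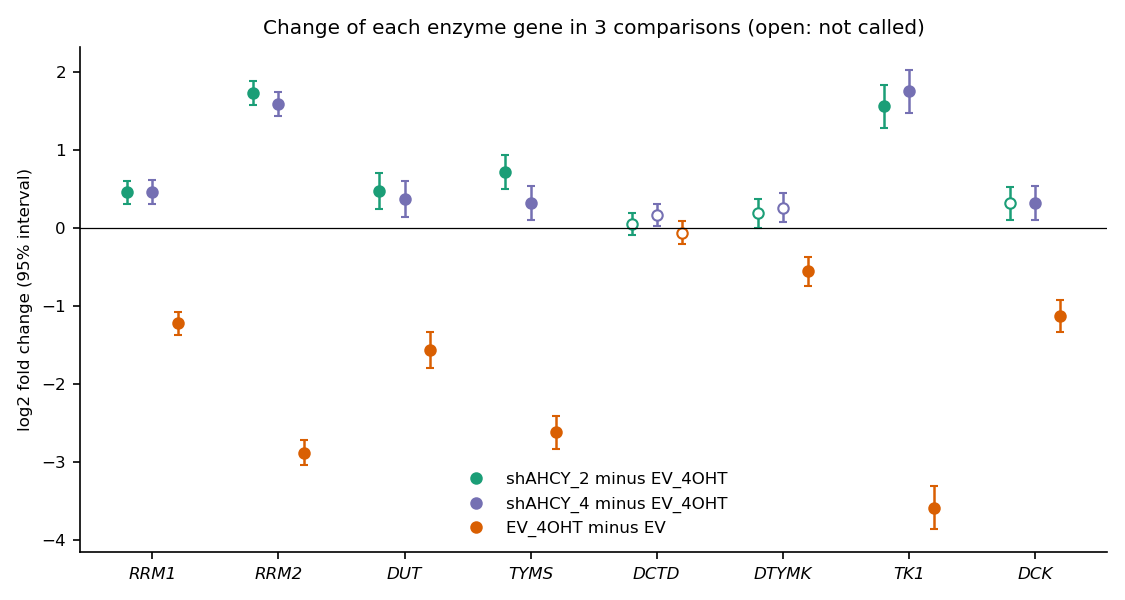
log2 fold change of each gene (y axis) with its 95% interval, in shAHCY_2 over EV_4OHT, shAHCY_4 over EV_4OHT and EV_4OHT over EV; open points have an edgeR adjusted p of 0.05 or more. TK1, RRM2 and TYMS lie lowest in EV_4OHT over EV (-3.58, -2.87 and -2.62), and RRM2 and TK1 highest with both hairpins.

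With both hairpins most of the enzymes stayed below the level of non-senescent cells. Against EV, 7 of 8 were lower with shAHCY_2 and 7 of 8 with shAHCY_4, where 23.6% and 25.8% of all genes tested were lower. None was higher, where 24.5% and 25.4% of all genes were. The exception in both was DCTD, at 99.9% of EV with shAHCY_2 (log2 fold change -0.00, 95% interval -0.14 to 0.14) and 108% with shAHCY_4 (0.11, -0.03 to 0.25). TYMS stayed furthest down with shAHCY_4, at 20.3% of EV (log2 fold change -2.29 ± 0.10 SE, edgeR adjusted p = 1.86e-14), and TK1 with shAHCY_2, at 24.6% (-2.02 ± 0.12, edgeR adjusted p = 4.22e-12). DTYMK was the nearest of the 7, at 77.7% with shAHCY_2 and 81.5% with shAHCY_4 (edgeR adjusted p = 0.0017 and 0.00842). RRM1 stood at 59.04% and 59.2%, DCK at 57.2% and 57.6%, and DUT at 47.3% and 43.8%.

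Set directly against each other, the hairpins differed in the level of none of the 8 enzymes by edgeR's adjusted p, where 0.702% of all genes tested were higher and 0.54% lower with shAHCY_2. At an unadjusted p under 0.05 the count was 1 of 8, against 17.9% of all genes. DESeq2 called 1, and that gene was TYMS. TYMS had 17.0 to 22.4 CPM in shAHCY_2 and 12.9 to 16.3 CPM in shAHCY_4, ranges that did not overlap. Its log2 fold change was 0.40 ± 0.10 (SE, 95% interval 0.18 to 0.61, edgeR adjusted p = 0.0572, DESeq2 adjusted p = 0.0159). RRM2 differed by 0.14 (95% interval -0.00 to 0.29) and TK1 by -0.19 (-0.44 to 0.06). RRM1 differed by -0.00 (-0.15 to 0.14), DCK by -0.00 (-0.22 to 0.21), DUT by 0.10 (-0.13 to 0.34), DTYMK by -0.07 (-0.25 to 0.12) and DCTD by -0.11 (-0.26 to 0.03). These intervals do not show that the hairpins act alike.

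The order of the 8 levels also differed between groups. Per kb of the longest transcript, the levels in shAHCY_2 were led by DCTD (64.3 CPM per kb) and DTYMK (57.8), then RRM2 (31.0), RRM1 (30.5), TK1 (17.9), DUT (17.6), TYMS (11.8) and DCK (8.56). In shAHCY_4 they were DCTD (69.5), DTYMK (60.7), RRM1 (30.6), RRM2 (28.1), TK1 (20.5), DUT (16.3), TYMS (8.86) and DCK (8.62). The ranges of RRM1 and RRM2 overlapped in both hairpin groups, as did those of DCTD and DTYMK and of TK1 and DUT in shAHCY_2 and of TYMS and DCK in shAHCY_4. In EV_4OHT the order was DCTD (61.8), DTYMK (50.8), RRM1 (22.2), DUT (12.7), RRM2 (9.32), TYMS (7.12), DCK (6.86) and TK1 (6.05). In EV it was DTYMK (74.5), TK1 (73.0), RRM2 (68.3), DCTD (64.3), RRM1 (51.7), TYMS (43.6), DUT (37.3) and DCK (15.0). By its mean TK1 thus stood last in EV_4OHT and second in EV. In EV_4OHT its range overlapped those of TYMS and DCK, and in EV those of DTYMK, RRM2 and DCTD, so neither place is separated from its neighbours. The ranges of RRM2 and DCTD and of TYMS and DUT also overlapped in EV.

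The genes whose levels ran most like each enzyme were sought by the root-mean-square difference of log2 CPM relative to each gene's own EV mean, over the 16 libraries and 8545 genes with a mean log2 CPM of at least 3. Nearest to TK1 were ANLN, PRC1 and NUSAP1 (differences of 0.192, 0.193 and 0.240 on the log2 scale). Nearest to RRM2 were SHCBP1, UBE2C and CDC20 (0.205, 0.212 and 0.221). ANLN, PRC1, NUSAP1, UBE2C and CDC20 are known from mitosis and cytokinesis. Nearest to TYMS were C1R, PTGER2 and PTN (0.220, 0.227 and 0.282), a complement protease, a prostaglandin receptor and a secreted growth factor. GMNN, the licensing inhibitor geminin, was nearest to DUT (0.100), ahead of ARID5B and LANCL1. RHNO1, a checkpoint protein, was nearest to RRM1 (0.0928), ahead of MEIS1 and PSRC1, and came next to CDH2 and NR2F2 for DCK (0.119). DTYMK ran most like COMMD4, FADS2 and FEZ1 (0.0723 to 0.0779), and DCTD like PSMD1, MBTPS1 and ELP2 (0.0546 to 0.0670). Small differences come easily to genes that hardly move, and the likeness was not tested.

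Among the other genes of nucleotide metabolism, changes in EV_4OHT over EV went in both directions. Of all genes tested, 53.5% changed in either direction. Of 9 folate cycle genes, 2 rose and 4 fell, and their median change was -0.26 on the log2 scale. SHMT1, a cytosolic serine hydroxymethyltransferase, fell (log2 fold change -1.16 ± 0.13 SE, edgeR adjusted p = 6.88e-08), while SHMT2, its mitochondrial counterpart, rose (0.70 ± 0.08, edgeR adjusted p = 2.60e-07). Of 12 genes that break down nucleotides or nucleosides or clean the dNTP pool, 3 rose and 6 fell. PNP, a purine nucleoside phosphorylase, rose (2.15 ± 0.11, edgeR adjusted p = 1.83e-13), and SAMHD1, a dNTP hydrolase, fell (-0.45 ± 0.10, edgeR adjusted p = 4.59e-04). NUDT1, which removes oxidised dNTPs, fell (-0.89 ± 0.11, edgeR adjusted p = 3.34e-07), and NT5E, an ectonucleotidase, rose (0.42 ± 0.06, edgeR adjusted p = 7.28e-06).

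Of 15 other nucleotide kinases, 7 rose and 1 fell in EV_4OHT over EV, around a median change of 0.21 (log2). NME1 (0.78 ± 0.08 SE, edgeR adjusted p = 1.84e-08) and UCK2, a uridine-cytidine kinase (0.58 ± 0.07, edgeR adjusted p = 5.90e-07), were among them. NME1 closely resembles its neighbour NME2, and the counting could divide reads between them. CMPK2, an interferon-induced kinase, had 84 counts over the 4 EV_4OHT libraries and 2 over the 4 EV libraries, a ratio of 52.2 (95% counting interval 14.0 to 438). Both EV counts were in replicate 52, and without that library CMPK2 had 0 counts in EV and the fitted log2 fold change was 7.40, against 5.31 with it. Of 14 purine synthesis genes, 3 rose and 5 fell. PRPS1 (-1.08 ± 0.08, edgeR adjusted p = 1.13e-10) and PAICS (-0.54 ± 0.07, edgeR adjusted p = 1.25e-06) fell and IMPDH1 rose (0.72 ± 0.12, edgeR adjusted p = 1.92e-05). Of 5 pyrimidine synthesis genes, 2 rose, CTPS1 (0.62 ± 0.09, edgeR adjusted p = 7.27e-06) and UMPS (0.47 ± 0.08, edgeR adjusted p = 3.43e-05). Of 7 transporters tested, 1 rose, and SLC29A2 fell (-0.80 ± 0.28, edgeR adjusted p = 0.0208, lost without EV replicate 49 or EV_4OHT replicate 54 or 55, 0.0502 to 0.0776). Of the 3 genes of mitochondrial and resting-cell supply, RRM2B alone was called. TK2 was not called (-0.21 ± 0.12, edgeR adjusted p = 0.157, and 0.0104 without EV_4OHT replicate 55), nor was DGUOK (0.07 ± 0.09, edgeR adjusted p = 0.529).

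Among 12 tested E2F and RB family genes, which control S-phase transcription, 3 rose and 6 fell in EV_4OHT over EV. E2F7, a repressor that targets such genes, rose to 162, 157, 177 and 167 CPM in EV_4OHT, against 45.4, 38.6, 41.2 and 42.5 CPM in EV (log2 fold change 1.98 ± 0.10 SE, edgeR adjusted p = 1.99e-13). E2F8, its relative, had 0 counts in the 4 EV_4OHT libraries and 121 in the 4 EV libraries, at least 32.4-fold lower when 3 counts over all 4 libraries are taken as the floor. E2F1, an activator, fell (-1.18 ± 0.25, edgeR adjusted p = 3.74e-04), as did RBL1 (-2.47 ± 0.20, edgeR adjusted p = 4.80e-10). Among 12 genes that control ribonucleotide reductase, 5 rose and 4 fell. CCNF, the F-box protein that marks RRM2 for degradation, fell (-1.31 ± 0.13, edgeR adjusted p = 9.72e-09). CDKN1A rose (1.36 ± 0.08, edgeR adjusted p = 1.78e-12).

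The same lists were read in the hairpin comparisons with EV_4OHT, where 6.98% of all genes tested changed with shAHCY_2 and 14.4% with shAHCY_4. SHMT1 rose with shAHCY_2 (log2 fold change over EV_4OHT 0.50 ± 0.13 SE, edgeR adjusted p = 0.0209) and with shAHCY_4 (0.51 ± 0.13, edgeR adjusted p = 0.0108). The first of these calls was lost without EV_4OHT replicate 55 or 56 or shAHCY_2 replicate 58 (0.0617 to 0.083), and the second without EV_4OHT replicate 56 (0.0528). Folate cycle genes counted 2 higher and 0 lower of 9 with shAHCY_2, and 3 higher and 1 lower with shAHCY_4. MTHFD2, a mitochondrial folate enzyme, was the 1 lower (-0.32 ± 0.09, edgeR adjusted p = 0.0158, lost without shAHCY_4 replicate 62, 63 or 64, 0.0501 to 0.068).

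Purine synthesis genes counted 3 higher and 0 lower of 14 with shAHCY_2, and 5 higher and 0 lower with shAHCY_4. PAICS rose by 0.40 ± 0.07 with shAHCY_2 (log2 fold change over EV_4OHT ± SE, edgeR adjusted p = 8.02e-04) and by 0.51 ± 0.07 with shAHCY_4 (edgeR adjusted p = 2.82e-05). PFAS rose by 0.55 ± 0.12 (edgeR adjusted p = 0.00697) and 0.81 ± 0.12 (edgeR adjusted p = 7.36e-05) with the same hairpins. PRPS2 rose with shAHCY_2 (0.78 ± 0.16, edgeR adjusted p = 0.00278) and with shAHCY_4 (0.54 ± 0.16, edgeR adjusted p = 0.0238, lost without EV_4OHT replicate 53, 54 or 55 or shAHCY_4 replicate 61 or 64, 0.0533 to 0.0924). GART rose with shAHCY_4 (0.33 ± 0.08, edgeR adjusted p = 0.00899) and was at 0.17 ± 0.08 with shAHCY_2 (edgeR adjusted p = 0.25). PNP fell with shAHCY_2 (-0.45 ± 0.10, edgeR adjusted p = 0.00881) and with shAHCY_4 (-0.40 ± 0.10, edgeR adjusted p = 0.0113). Breakdown and pool-cleaning genes counted 0 higher and 2 lower of 12 with shAHCY_2, and 3 higher and 2 lower with shAHCY_4. CDA, a cytidine deaminase, was the other lower gene with shAHCY_2 (-0.87 ± 0.26, edgeR adjusted p = 0.0424), at 1.14 to 2.53 CPM in shAHCY_2, against 2.21 to 3.93 CPM in EV_4OHT. That call was lost without any 1 of 10 libraries (EV replicates 50 and 52, EV_4OHT replicates 53, 54 and 56, shAHCY_2 replicates 57, 58 and 59 and shAHCY_4 replicates 63 and 64, adjusted p 0.0501 to 0.123). With shAHCY_4, ADA rose (0.59 ± 0.16, edgeR adjusted p = 0.0147), as did NUDT1 (0.41 ± 0.11, edgeR adjusted p = 0.0134, lost without EV_4OHT replicate 53 or shAHCY_4 replicate 63, 0.0605 and 0.0512). With shAHCY_2, ADA was at 0.07 and NUDT1 at 0.32, neither called. SAMHD1 was called with neither hairpin (0.19 ± 0.10, edgeR adjusted p = 0.264, and -0.09 ± 0.10, edgeR adjusted p = 0.631).

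Other nucleotide kinases counted 1 higher and 0 lower of 15 with shAHCY_2, and 1 higher and 1 lower with shAHCY_4. UCK2 rose with shAHCY_2 (log2 fold change over EV_4OHT 0.26 ± 0.07 SE, edgeR adjusted p = 0.032) and shAHCY_4 (0.29 ± 0.07, edgeR adjusted p = 0.00788), and AK4, a mitochondrial adenylate kinase, fell with shAHCY_4 (-0.97 ± 0.24, edgeR adjusted p = 0.00796). The shAHCY_2 call of UCK2 was lost without any EV_4OHT library or without shAHCY_2 replicate 57, 58 or 60 (0.0532 to 0.101). Of the 5 pyrimidine synthesis genes none was called with shAHCY_2, and DHODH rose with shAHCY_4 (0.52 ± 0.16, edgeR adjusted p = 0.0374, lost without any EV_4OHT library or without shAHCY_4 replicate 62 or 63, 0.0581 to 0.161). With shAHCY_2 the log2 fold change of DHODH was 0.50, close to that with shAHCY_4. None of the 7 transporters and none of the 3 supply genes was called with either hairpin. TK2 with shAHCY_4 was at 0.29 ± 0.12 (edgeR adjusted p = 0.123), and at 0.44 (0.0165) without EV_4OHT replicate 55.

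None of the 12 E2F and RB genes was called with shAHCY_2. With shAHCY_4, RBL1 rose (log2 fold change over EV_4OHT 1.24 ± 0.21 SE, edgeR adjusted p = 2.67e-04) and RBL2 rose (0.67 ± 0.11, edgeR adjusted p = 1.47e-04). With shAHCY_2, RBL1 was at 0.61 and RBL2 at 0.20. E2F7 stayed high, at 141, 155, 199 and 135.1 CPM in shAHCY_2 and 156, 144, 136 and 154 CPM in shAHCY_4, and was called with neither (edgeR adjusted p = 0.69 and 0.269). E2F1 had 1.57 to 2.28 CPM in shAHCY_2 and 2.31 to 3.43 CPM in shAHCY_4, against 1.203 to 2.95 CPM in EV_4OHT (edgeR adjusted p = 0.969 and 0.223). Of the 12 reductase control genes, 1 rose and 2 fell with shAHCY_2, and 2 rose and 3 fell with shAHCY_4. CHEK1, a replication checkpoint kinase, rose with shAHCY_2 (0.60 ± 0.10, edgeR adjusted p = 6.64e-04) and with shAHCY_4 (0.39 ± 0.10, edgeR adjusted p = 0.0143, lost without EV_4OHT replicate 54 or shAHCY_4 replicate 62, 0.0527 and 0.06). CCNF rose with shAHCY_4 (0.66 ± 0.13, edgeR adjusted p = 0.00128) and was at 0.30 ± 0.13 with shAHCY_2 (edgeR adjusted p = 0.174). TXN, thioredoxin, which reduces the reductase after each cycle, fell with shAHCY_2 (-0.40 ± 0.10, edgeR adjusted p = 0.019) and with shAHCY_4 (-0.69 ± 0.10, edgeR adjusted p = 6.25e-05). TXNRD1, thioredoxin reductase, fell with shAHCY_2 (-0.46 ± 0.11, edgeR adjusted p = 0.013) and with shAHCY_4 (-0.41 ± 0.11, edgeR adjusted p = 0.0165, lost without EV_4OHT replicate 53 or shAHCY_4 replicate 63 or 64, 0.0523 to 0.0702). GLRX, glutaredoxin, fell with shAHCY_4 (-0.34 ± 0.08, edgeR adjusted p = 0.00675) and was at -0.18 ± 0.08 with shAHCY_2 (edgeR adjusted p = 0.193). In EV_4OHT over EV, TXN, TXNRD1 and GLRX had each been called higher (log2 fold change 0.68, 0.54 and 0.59). With shAHCY_2 the TXN call was lost without EV_4OHT replicate 54 or 56 or shAHCY_2 replicate 57 or 58 (0.0504 to 0.0904), and that of TXNRD1 without EV_4OHT replicate 53 (0.0513).

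**Figure D5:**
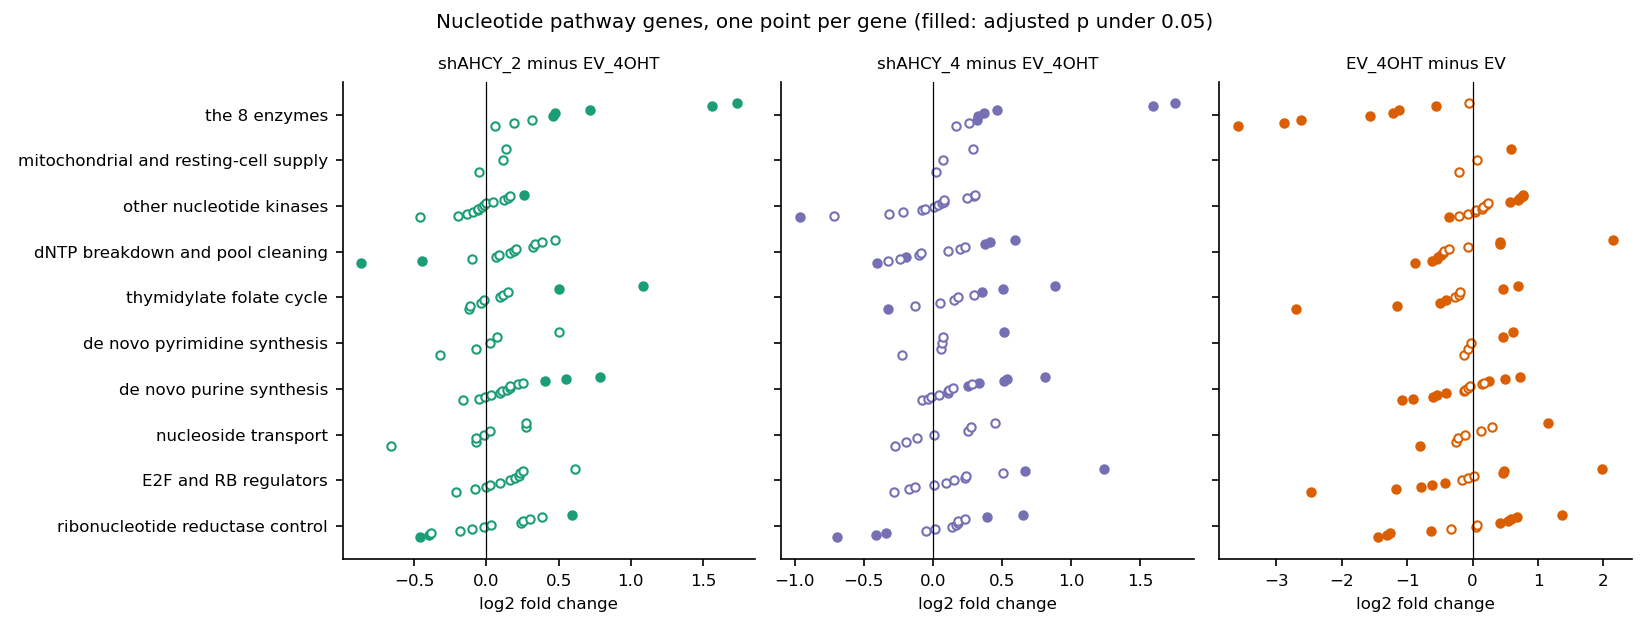
log2 fold change of each tested gene (x axis, own range in each panel) in the 8 enzymes and 9 other nucleotide lists, for shAHCY_2 over EV_4OHT, shAHCY_4 over EV_4OHT and EV_4OHT over EV; filled points have an edgeR adjusted p under 0.05, and E2F8 and CMPK2, near 0 counts in 1 group, are not drawn. In EV_4OHT over EV the 8 enzymes run from -3.58 to -0.06. Each other list there, except the 5 pyrimidine synthesis and 3 supply genes, holds filled points on both sides of 0. Of all genes tested, 26.7% were higher and 26.8% lower in that comparison, and the lists were not tested against each other.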

How the data were processed

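RNA was measured in 16 Smart-Seq2 libraries, in 4 groups of 4 named in the labels. Per the submitters' processing notes, the tools were CASAVA 1.8.2, TopHat2 2.0.11 and featureCounts 1.18.0 with hg19 or GRCh37. For the annotation release, the strand setting and multi-mapping reads, the answer is not given in the sources used here. The deposited table holds raw gene counts, not normalized by the authors, for 62069 Ensembl identifiers. Symbols matched 50127 of them, and the rest held 0.503% of counts. Transcript length and GC content come from the longest GENCODE transcript, and promoter windows from RefSeq, both on a later build.

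With R 4.3.3, edgeR 4.0.16 kept 13526 genes (filterByExpr), computed TMM factors and fitted 1 quasi-likelihood model with a mean per group, so that all comparisons share an estimate of the spread (biological coefficient of variation 11.9%). Two-sided p-values were adjusted over those genes by Benjamini-Hochberg, and genes under 0.05 were called. Standard errors are the absolute log2 fold change over the square root of F, and 95% intervals use t quantiles. Levels are TMM-scaled CPM. The test was also run on simulated counts, with the same spread for every gene, a pair of groups at a time and no GC trends. That run therefore does not show how the calls hold in these libraries. Counting intervals and floors cover counting error only.

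The 8 genes and the lists were chosen with earlier results of these data known. The genes named are the 8 enzymes in every comparison, AHCY, 9 fixed pathway genes, up to 3 called genes with the smallest adjusted p of each list and main comparison, and the 3 genes most like each enzyme. A list gene named with 1 hairpin and called with the other is given for both. Some genes that this rule names are not reported here. ENOSF1 and MOB1B are given because they overlap TYMS and DCK. The alternatives tried were library totals alone, RLE or upper-quartile factors, DESeq2 1.42.0, limma-voom (limma 3.58.1), no low-count filter, at least 10 counts in 8 libraries, only the 2 groups compared, removal of each library's GC trend (97.96% of genes have a value), a fold threshold of 1 (log2) and leaving out each library. The 24 pairs of libraries within groups differed by 3.15 to 35.9 chi-square per degree of freedom, so none was counted as a duplicate.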

Additional observations from a re-analysis of the deposited data

Results flagged for a closer look

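Of 68 sets of 4 libraries checked (the 8 enzymes and 9 fixed pathway genes in 4 groups), 7 held a library whose gap to the nearest of the others took up most of the range. Chance gives such a gap in about 1 in 20 sets. Among the 8 enzymes, RRM1 was high in shAHCY_4 replicate 62 (104 CPM) and DTYMK was high in EV replicate 52 (102.5 CPM). RRM2B was high in shAHCY_2 replicate 59 (228 CPM) and TK2 was high in EV_4OHT replicate 55 (16.3 CPM). TYMP, thymidine phosphorylase, was low in EV_4OHT replicate 53 (0.0831 CPM) and high in EV replicate 49 (1.43 CPM). CCNF was low in EV replicate 51 (25.4 CPM).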

How the results depend on the processing

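No paired analysis was possible because the replicate numbers in the titles are not shared between groups. In EV_4OHT over EV, 199 of 200 values of the 8 enzymes kept their direction and side of the threshold under the 25 alternatives other than the fold threshold. The exception is DCTD under library totals, given above. With a fold threshold of 1 (log2), the DCK and DTYMK calls in EV_4OHT over EV were lost (adjusted p = 0.29 and 1), 2 enzymes were higher with shAHCY_2 over EV_4OHT and 2 with shAHCY_4, and 2 were lower with shAHCY_2 over EV and 3 with shAHCY_4. Between the hairpins, DESeq2 and the removal of the GC trend each called 1 higher with shAHCY_2. Without 1 library, the count higher with shAHCY_4 over EV_4OHT ranged from 3 to 7, and was 3 without EV_4OHT replicate 53, 54 or 55 or shAHCY_4 replicate 62 or 64. It was 4 under voom and without the low-count filter, and 8 under library totals. With shAHCY_2 over EV_4OHT the count ranged from 4 to 6.

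The values that turned direction were called neither before nor after. For shAHCY_2 over shAHCY_4, RRM1 was at 0.0027 (upper-quartile), 0.0055 (no filter) and 0.0014 (10 counts in 8 libraries). DCK was at 0.0029, 0.0052 and 0.0016 under the same settings and 0.0080 under voom, and DTYMK at 0.017 with the GC trend removed. For shAHCY_2 over EV, DCTD was at 0.0046 (RLE), 0.0069 (DESeq2), 0.0010 (voom), 0.018 (no filter) and 0.0043 (2 groups). With the GC trend removed, RRM2B was at -0.068 with shAHCY_2 and -0.010 with shAHCY_4 over EV_4OHT. DGUOK in EV_4OHT over EV was at -0.045 under library totals, and TYMP with shAHCY_4 over EV_4OHT at 0.041 under voom. Leaving out 1 library, the ranges were -0.051 to 0.037 for RRM1 and -0.069 to 0.059 for DCK between the hairpins, and -0.046 to 0.022 for DCTD with shAHCY_2 over EV. They were -0.063 to 0.21 for RRM2B, -0.10 to 0.091 for TK2 and -0.14 to 0.32 for E2F1 with shAHCY_2 over EV_4OHT. They were -0.017 to 0.055 for RRM2B and -0.60 to 0.076 for TYMP with shAHCY_4 over EV_4OHT, and -0.0043 to 0.11 for DGUOK and -0.25 to 0.30 for TYMP in EV_4OHT over EV. The cause of these turns was not tested.

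TYMS with shAHCY_4 over EV_4OHT was no longer called under RLE factors, voom, no filter or 2 groups (adjusted p 0.051 to 0.187). Without the filter the shAHCY_4 calls of UCK2 (0.0579), NUDT1 (0.0624) and DHODH (0.0576) and the shAHCY_2 call of UCK2 (0.143) were lost. With 2 groups the shAHCY_2 calls of SHMT1 (0.0656) and CDA (0.0908) were lost, and CDA also under voom (0.0695) and library totals (0.0514). Gained calls were CCNF with shAHCY_2 with the GC trend removed (0.0315), E2F7 with shAHCY_4 with 2 groups (0.0346), and TK2 (0.0351) and CDA (0.0468) in EV_4OHT over EV under library totals. Of the genes called in EV_4OHT over EV, 38.2% were higher under library totals and 49.9% under TMM. With shAHCY_2 over EV_4OHT that share was 69.8% under library totals, 46.1% with the GC trend removed and 56.04% under TMM, and with shAHCY_4 it was 67.4%, 47.9% and 52.5%. With 106 counts in the thinnest library of TK1 and of TYMS, and 208 in that of DCK, counting error bears most on these 3.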
